A study of Homo sapiens with 8 samples.

Results

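The genes described here encode the chains of human collagens. They were chosen by symbol, as every protein-coding gene whose symbol is COL followed by a number, the letter A and a number, which gave 44 of the 58051 genes counted. The cells were A375, a human BRAF-mutant melanoma line, in 4 lines that are wild type for *NECTIN1*, the adhesion gene that the study inactivated elsewhere. Each line, WT1 to WT4, was cultured for 12 h in DMEM with 10% FBS (serum) or in DMEM without FBS (serum-free), and gave 1 RNA-sequencing library in each condition, or 8 in all. The study made its knockout lines from single A375 clones and refers to wild-type lines as parental. Whether each of WT1 to WT4 is 1 clone is not given in the sources used here. Replicates were therefore lines, with n = 4 per condition, and p-values of the main fit measured the spread between these lines. In fits that also held the line as a term, p-values measured the spread left after line and condition. The change after serum withdrawal is the comparison the labels imply, and the spread between lines within each condition is the other.

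Collagens are secreted as trimers wound from chains of 1 to several genes, each chain a long run of glycine-containing repeats. Fibrillar collagens (I, II, III, V, XI, XXIV and XXVII) pack into the fibers of skin, cartilage and bone, collagen IV forms the sheet of basement membranes, and the FACIT group (IX, XII, XIV, XVI, XIX and others) decorates the surface of fibrils. Collagen VI forms beaded filaments around cells, collagen VII the anchoring fibrils below the epidermis, and collagens VIII and X short-chain networks, while collagens XIII, XVII, XXIII and XXV span the plasma membrane and collagens XV and XVIII sit at basement membranes.

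Libraries held between 29759279 and 67101005 reads on genes with serum and between 37847737 and 73341551 without serum. Reads mapped to several places made up 22.7% of the WT1 and 16.8% of the WT2 library with serum and between 5.73% and 10.1% in the other 6 libraries, and the part of this difference in the results was not tested. Melanoma markers were mixed in these cells. *MITF*, a regulator of the melanocyte lineage, was at 40.1 CPM (counts scaled to the size of the library) with serum and 33.1 without (edgeR, adjusted p = 0.0496), *AXL*, a receptor high in dedifferentiated melanoma, at 590 and 471 CPM, whereas the pigment genes *PMEL*, *MLANA* and *DCT* were close to 1 CPM or below in both conditions. Of the other markers of melanocytes and neural crest, *NGFR* was at 93.1 and 104 CPM, from 24.1 to 199 CPM over the libraries. *S100B* was at 18.9 and 23.2 CPM, and *TYR*, *SOX9* and *MIA* had means of at most 0.311 CPM in either condition. The counts list *SOX10* at 0 reads in every library, with 5.39% of its exon bases overlapping the antisense gene *POLR2F*, and whether this 0 is one of expression or of counting was not tested. Of 8 fibroblast markers, 4 reached 1 CPM. Their summed level was 7.07 to 11.1 CPM with serum and 10.2 to 13 CPM without, with *LUM* highest (4.56 and 3.62 CPM), *POSTN* at 0 reads in every library, and *PDGFRA* at 0.708 CPM with serum and 2.39 CPM without (edgeR, adjusted p = 0.00767). Of the exon bases of *PDGFRA*, 16.1% overlap another gene on the same strand, and reads there are uncertain. Summed endothelial markers (mostly *KDR*) ran from 14.2 to 42.7 CPM and from 19.1 to 48.6 CPM, epithelial markers (mostly *KRT14* and *KRT8*) from 28.2 to 49.5 CPM and from 29.3 to 55.2 CPM, and leukocyte markers (mostly *CD14*) stayed below 1 CPM. The part of these markers in the collagen values was not tested. In bulk RNA, fewer cells that express a gene and less RNA per cell cannot be told apart.

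Of the 44 chains, 34 passed the filter on low counts, 24 had a mean of at least 1 CPM and 16 a mean of at least 1 RPKM, which also corrects counts for the length of the gene. Levels are compared between chains on the RPKM scale, with the merged length of all exons of a gene, and between libraries of the same gene in CPM. Summed over all chains, collagen mRNA was at 165.7 ± 20.4 RPKM with serum and 185 ± 18.8 RPKM without (SD, n = 4). FACIT chains made up 30.3% of this sum with serum and 33.3% without, basement membrane chains 25.0% and 21.9%, fibrillar chains 23.8% and 19.0%, and beaded-filament chains 16.7% and 20.1%. With serum, the place of FACIT chains in this order rested on WT4, where they summed to 80.2 RPKM and fibrillar chains to 20.2 RPKM. In WT1, WT2 and WT3 with serum fibrillar chains were the largest group, at 43.7, 50.4 and 43.4 RPKM. FACIT chains were at 43.5, 35.8 and 41.1 RPKM in these libraries. Without serum FACIT chains were the largest group in every line, at 57.3, 48.76, 50.44 and 89.97 RPKM in WT1 to WT4. The next group in each line was then at 39.7, 47.33, 38.83 and 47.92 RPKM. With the longest transcript as gene length the order changed, to 37.8% and 33.4% for basement membrane chains, 30.3% and 33.7% for FACIT chains, 15.5% and 12.7% for fibrillar chains and 12.8% and 15.5% for beaded-filament chains. The chains *COL9A3*, *COL4A2*, *COL5A2*, *COL6A1*, *COL4A1* and *COL6A2*, carried the larger part of it, and the first 4 of them ranked from 1006 to 1903 among 17425 expressed genes, whose median was 2.86 RPKM.

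**Figure D1:**
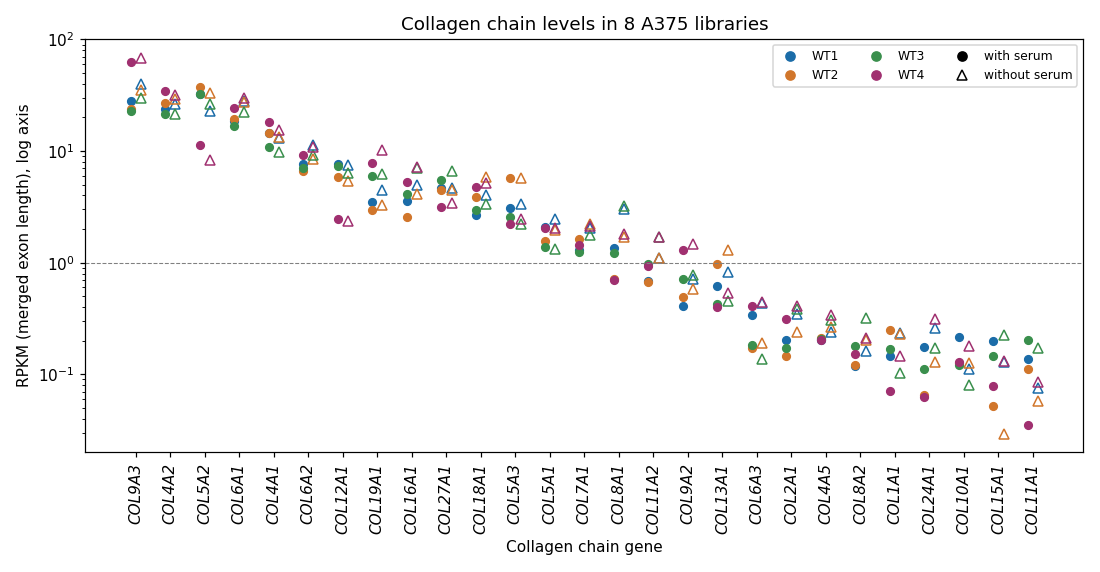
Level of the 27 collagen chains with a mean of at least 0.1 RPKM, on a log axis of RPKM with merged exon length, in order of their mean. Filled circles are libraries with serum, open triangles libraries without serum, colors are the 4 lines, and the dashed line marks 1 RPKM. *COL5A2* and *COL12A1* in WT4 sit below the other lines, and *COL9A3* in WT4 above them.

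Among the basement membrane chains, *COL4A1* and *COL4A2*, which form the collagen IV of nearly all basement membranes, were far above the other 4. *COL4A2* (chromosome 13 of GRCh38, 110307284 to 110513209, + strand) was at 23.9, 27.1, 21.3 and 34.3 RPKM in WT1 to WT4 with serum and at 26.2, 29.3, 21.6 and 31.8 RPKM without. *COL4A1* (110148963 to 110307157, - strand) was at 14.6, 14.5, 10.8 and 18.1 RPKM with serum and at 13.0, 13.4, 9.83 and 15.5 RPKM without. WT4 was highest and WT3 lowest for both chains in both conditions. In the collagen IV trimer the *COL4A1* chain outnumbers the *COL4A2* chain, but in RNA the ratio of *COL4A1* to *COL4A2* was 0.545 ± 0.0457 with serum and 0.473 ± 0.0201 without (SD, n = 4), or 0.409 and 0.355 with the length of the longest transcript. The genes of *COL4A3*, *COL4A4*, *COL4A5* and *COL4A6*, whose chains form the collagen IV of kidney and other specialized membranes, were each below 0.4 RPKM in every library.

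The 6 collagen IV genes lie head to head in 3 pairs, each transcribed outward from a shared start region, which is shown because the members of a pair could be compared for common change. The 3 stretches below are 300-base RefSeq promoter windows of GRCh38.p14, from 250 bases before to 50 bases after the start of the named gene on the + strand. They cover *COL4A2* at chr13:110307034-110307333, *COL4A3* at chr2:227164374-227164673 and *COL4A5* at chrX:108439588-108439887. Capitals mark the bases between the start of the named gene and the start of its partner on the - strand (*COL4A1*, *COL4A4* and *COL4A6*), as far as the window reaches.
COL4A2: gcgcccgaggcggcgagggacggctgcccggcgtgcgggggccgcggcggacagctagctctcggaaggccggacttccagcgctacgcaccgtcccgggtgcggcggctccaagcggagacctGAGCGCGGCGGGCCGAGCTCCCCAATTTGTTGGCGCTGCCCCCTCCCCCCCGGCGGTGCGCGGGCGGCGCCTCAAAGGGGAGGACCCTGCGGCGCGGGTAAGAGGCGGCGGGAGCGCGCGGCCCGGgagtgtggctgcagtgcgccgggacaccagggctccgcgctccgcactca
COL4A3: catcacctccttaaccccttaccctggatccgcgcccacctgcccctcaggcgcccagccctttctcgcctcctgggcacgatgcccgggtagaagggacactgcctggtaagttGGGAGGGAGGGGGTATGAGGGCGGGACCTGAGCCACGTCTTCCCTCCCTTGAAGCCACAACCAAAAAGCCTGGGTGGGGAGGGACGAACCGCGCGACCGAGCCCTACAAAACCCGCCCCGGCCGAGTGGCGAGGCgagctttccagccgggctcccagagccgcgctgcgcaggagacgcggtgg
COL4A5: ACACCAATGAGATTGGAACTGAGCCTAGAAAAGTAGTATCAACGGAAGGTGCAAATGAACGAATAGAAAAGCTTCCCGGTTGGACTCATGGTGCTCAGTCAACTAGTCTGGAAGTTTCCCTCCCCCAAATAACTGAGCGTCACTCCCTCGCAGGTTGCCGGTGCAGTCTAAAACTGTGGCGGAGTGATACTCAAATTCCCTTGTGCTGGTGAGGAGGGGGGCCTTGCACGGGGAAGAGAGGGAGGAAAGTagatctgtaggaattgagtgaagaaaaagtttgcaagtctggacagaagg
The starts are 126 bases apart for *COL4A1* and *COL4A2*, 135 for *COL4A3* and *COL4A4*, and 379 for *COL4A5* and *COL4A6*. The windows differ in base composition. The *COL4A2* window has a GC content of 77.7% with 45 CpG, the *COL4A3* window 67.7% with 24, and the *COL4A5* window 49.3% with 8, against medians of 58.7% and 14 over 35116 RefSeq promoter windows. The GC box GGGCGG, searched on both strands, occurs 1 time in the *COL4A2* window, 2 times in that of *COL4A3* and not in that of *COL4A5*, and 45.0% of all promoter windows hold it. The letters CCAAT, searched in the same way, occur 1, 0 and 2 times, and 34.6% of all windows hold them. These are matches of letters and no measure of binding. RefSeq windows were matched for 32 of the 44 chains, of whose 44 windows 24 (54.5%) hold the GC box and 14 (31.8%) hold CCAAT.

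The FACIT sum rested on *COL9A3*, a chain of the cartilage collagen IX, which had the highest mean of all chains by merged length owing to its level in WT4 (in WT1 to WT3 with serum *COL5A2* was higher), at 28.2, 23.8, 22.6 and 63.3 RPKM in WT1 to WT4 with serum and 39.6, 35.3, 29.9 and 68.6 RPKM without. Its partners were low. *COL9A2* was at 0.0145 to 0.0318 of the *COL9A3* level over the 8 libraries, and *COL9A1* had a mean of 0.0255 RPKM. *COL12A1*, *COL19A1* and *COL16A1*, the other FACIT chains above 1 RPKM, had means of 5.6, 5.55 and 4.86 RPKM.

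Fibrillar chains were dominated by *COL5A2*, a chain of the collagen V that sits inside collagen I fibrils, at 32.5, 37.4, 32.3 and 11.3 RPKM with serum and 23.0, 33.4, 26.1 and 8.38 RPKM without. *COL5A1*, which supplies most of the chains of a collagen V trimer, was at 0.0421 to 0.243 of the *COL5A2* level, and this share was highest in WT4, where *COL5A2* was lowest. *COL27A1* and *COL5A3* had means of 4.61 and 3.42 RPKM. The chains of collagen I and III, the main collagens of dermis, were close to absent. *COL1A1* ran from 0.0704 to 0.250 RPKM, and *COL1A2* and *COL3A1* had 20 and 22 reads over all 8 libraries.

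Of the beaded-filament chains, *COL6A1* was at 18.4, 19.3, 16.7 and 24.2 RPKM with serum and 28.0, 27.8, 22.4 and 29.8 RPKM without. *COL6A2* was at 7.65, 6.57, 7.12 and 9.19 RPKM with serum and 11.3, 8.48, 9.16 and 10.8 RPKM without, so that *COL6A1* was 2.58 ± 0.270 times *COL6A2* with serum and 2.74 ± 0.382 times without (SD, n = 4). A collagen VI trimer joins these chains to a larger one, and *COL6A3*, which encodes the usual one, was at 0.00617 to 0.0186 of the *COL6A1* level. Its alternatives *COL6A6* and *COL6A5* had 150 and 0 reads over the 8 libraries. A count of 0 in one library allows up to 0.0392 to 0.106 CPM, a limit that covers counting error only.

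The order of the highest chains depended on the gene length used. With the longest transcript, *COL4A2* was first (79.7 RPKM with serum and 81.4 without), above *COL9A3* (66.8 and 84.1 RPKM), *COL4A1* (32.5 and 28.9 RPKM), *COL6A1* (25.9 and 35.5 RPKM) and *COL5A2* (30.4 and 24.4 RPKM) by their mean over both conditions. Without serum *COL9A3* was above *COL4A2* and *COL6A1* above *COL4A1*, and with serum *COL5A2* was above *COL6A1*. The 10 chains that did not pass the filter were *COL4A3*, *COL22A1*, *COL28A1*, *COL3A1*, *COL1A2*, *COL20A1*, *COL26A1*, *COL23A1*, *COL25A1* and *COL6A5*, with 57 reads at most over all 8 libraries. Another 8 tested chains were low and are given by their range, from 0.0352 to 1.84 CPM (*COL11A1*, *COL8A2*, *COL14A1*, *COL10A1*, *COL17A1*, *COL6A6*, *COL9A1* and *COL21A1*), and none of them passed the threshold between conditions or lines.

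The second question was how the chains changed after 12 h without serum. Past the threshold, 5 chains rose and 0 fell when the lines were treated as independent replicates. *COL8A1*, a chain of the network collagen VIII of vessel walls and cornea, rose the most, and *COL11A2*, *COL7A1*, *COL6A1* and *COL6A2* rose by smaller amounts. The 5 are 14.7% of the 34 chains tested, where 11.1% of all 17671 tested genes were higher without serum and 14% lower, 25.1% in all (edgeR's quasi-likelihood test, Benjamini-Hochberg adjusted p under 0.05). At an unadjusted p under 0.05, 10 chains were higher and 0 lower, beside 18.6% and 19.8% of all genes. DESeq2 called 8 chains higher and 0 lower, beside 13.3% and 16.7% of all genes, and limma's voom 5 higher and 0 lower, beside 12.2% and 14.4%. Both libraries of a line came from the same cell line, so the test was also made with the line as a block. There 14 chains (41.2%) rose and 2 (5.88%) fell, beside 23.2% and 22.4% of all genes (45.7% in all). Collagen chains are rich in G and C, with a median GC content of 55.1% beside 47.9% for all tested genes, and with a correction for GC content added to the block 11 (32.4%) rose and 4 (11.8%) fell, beside 21.7% and 24.5% (46.1% in all). The median log2 fold change of the 34 chains was 0.25 without the block, 0.27 with it and 0.03 with the GC correction, and that of all tested genes was 0.03, 0.04 and 0.01. The 11 chains that rose with the GC correction were among the 14 that rose with the block, all of them but *COL6A2*, *COL9A3* and *COL18A1*.

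In single lines, 16 of the 34 chains (47.1%) were higher without serum in all 4 lines, beside 28.8% of all genes, and 4 (11.8%, *COL4A1*, *COL5A2*, *COL12A1* and *COL14A1*) were lower in all 4, beside 26.6%. The serum-free libraries lay wholly above the serum libraries for 4 chains, *COL8A1*, *COL7A1*, *COL11A2* and *COL4A5*, beside 12.6% of all genes, and wholly below them for none, beside 15% of all genes.

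**Figure D2:**
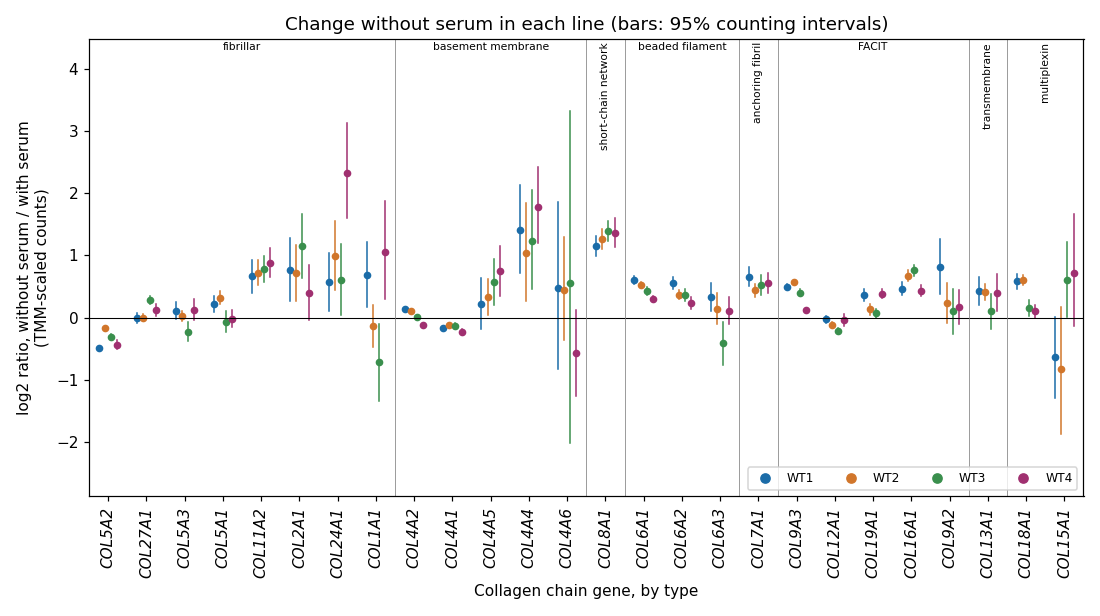
Log2 ratio of the serum-free to the serum library of each line for 26 collagen chains, grouped by collagen type, from counts scaled by edgeR's TMM. Points are the 4 lines and bars are 95% counting intervals, which hold no replicate error. All 4 lines lie above 0 for *COL8A1*, *COL7A1*, *COL11A2*, *COL6A1*, *COL6A2* and *COL16A1* and below 0 for *COL5A2*, *COL4A1* and *COL12A1*.

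*COL8A1* (chromosome 3, 99638594 to 99799217) was at 12.7, 6.69, 11.5 and 6.58 CPM in WT1 to WT4 with serum and at 28.2, 16, 30.1 and 17 CPM without. The groups did not overlap, and WT1 and WT3 were above WT2 and WT4 in both conditions. Its mean of 9.36 ± 3.18 CPM rose to 22.8 ± 7.37 CPM (SD, n = 4), or on the log2 scale by 1.29 ± 0.30 (SE, edgeR, Benjamini-Hochberg adjusted p = 0.0161), with 1.15, 1.26, 1.39 and 1.37 in the 4 lines from the scaled counts. The block left it at 1.29 (edgeR, adjusted p = 7.19e-08), and so did the GC correction (adjusted p = 1.73e-08). Without the block the call was lost without the WT1 line (edgeR, adjusted p = 0.0531) or the WT3 line (0.0637) and, at 0.0581, without the filter. *COL8A2*, the other chain of collagen VIII, had means of 0.666 and 1.05 CPM (log2 fold change 0.65, edgeR, adjusted p = 0.118). The short-chain network sum, which *COL8A1* led, was at 1.29 ± 0.371 RPKM with serum and 2.78 ± 0.777 RPKM without.

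*COL7A1*, the only chain of the anchoring fibril collagen, was at 14.5, 18.2, 13.8 and 16.2 CPM with serum and at 22.8, 24.8, 19.8 and 23.8 CPM without. All serum-free libraries were above all serum libraries, and the line means ran from 16.8 CPM in WT3 to 21.5 CPM in WT2. Its mean rose from 15.7 ± 1.97 to 22.8 ± 2.15 CPM (SD, n = 4), by 0.54 ± 0.11 on the log2 scale (SE, edgeR, adjusted p = 0.00814). The GC correction with the block gave 0.25 (edgeR, adjusted p = 0.0109), and leaving out the WT1 line gave an adjusted p of 0.0674 without the block.

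Both main chains of collagen VI rose in all 4 lines. *COL6A1* was at 102, 107, 92.5 and 134 CPM with serum and at 155, 154, 124 and 165 CPM without, and its mean of 109 ± 17.8 CPM rose to 149 ± 17.6 CPM (SD, n = 4), on the log2 scale by 0.46 ± 0.12 (SE, edgeR, adjusted p = 0.0235). Its neighbor on chromosome 21, *COL6A2* (46098112 to 46132848, with *COL6A1* at 45981770 to 46005048), was at 40.8, 35.0, 38.0 and 49.0 CPM with serum and at 60.0, 45.2, 48.8 and 57.8 CPM without, with a mean of 40.7 ± 6.03 and 53.0 ± 7.08 CPM and a log2 fold change of 0.38 ± 0.12 (SE, n = 4, edgeR, adjusted p = 0.0475). WT4 with serum overlapped the serum-free range of both genes. With the block the adjusted p from edgeR was 2.24e-05 for *COL6A1* and 2.53e-04 for *COL6A2*. RLE scaling without the block took *COL6A2* over the threshold (0.37, edgeR, adjusted p = 0.0547) and left 4 called chains. With the GC correction *COL6A1* kept 0.20 (edgeR, adjusted p = 9.25e-04), while *COL6A2* fell short of the threshold at 0.07 (adjusted p = 0.282). *COL6A3*, at 7.36, 3.68, 3.97 and 8.80 CPM with serum and 9.29, 4.07, 2.98 and 9.50 CPM without, did not pass (0.12, edgeR, adjusted p = 0.87), and was lower without serum in WT3 alone. When each library and each line was omitted in turn without the block, both *COL6A1* and *COL6A2* lost their calls in 9 of 12 fits (edgeR, adjusted p from 0.0536 to 0.141 and from 0.0743 to 0.213). *COL6A1* kept its call without the WT4 serum library, the WT3 serum-free library or the WT4 line, and *COL6A2* without the WT4 serum library, the WT2 serum-free library or the WT4 line.

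**Figure D3:**
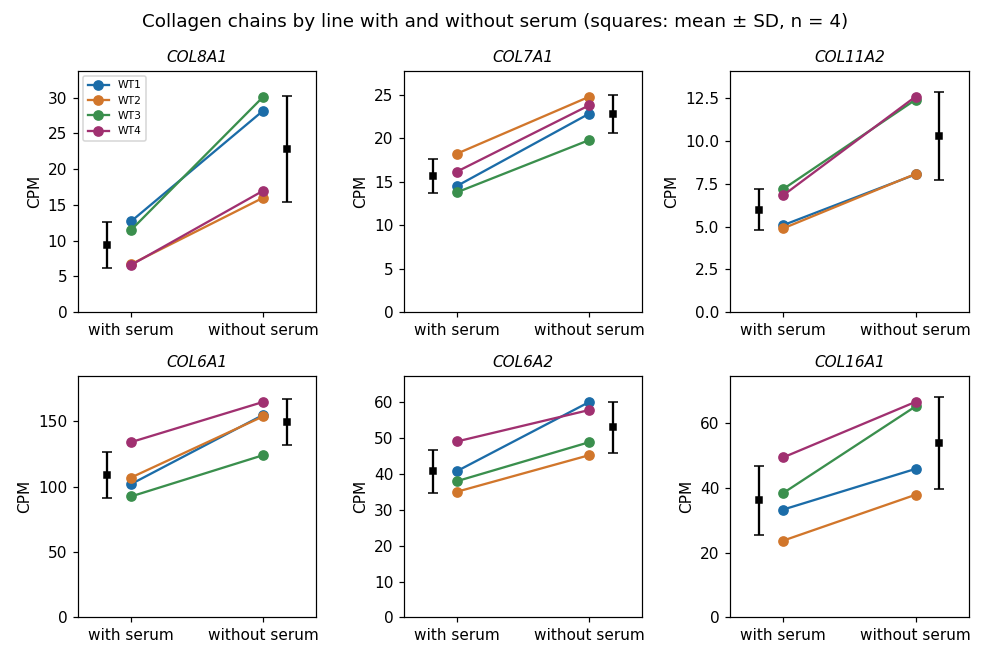
CPM of 6 collagen chains with and without serum, with a line joining the 2 libraries of each of the 4 lines (n = 4). Black squares and bars are the mean ± SD of a condition. Every line rises for each gene, and the conditions do not overlap for *COL8A1*, *COL7A1* and *COL11A2*.

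Fibrillar chains moved in different directions. *COL11A2*, a cartilage chain, was at 5.08, 4.90, 7.19 and 6.83 CPM with serum and at 8.05, 8.08, 12.4 and 12.6 CPM without, with no overlap between conditions, and rose by 0.78 ± 0.21 on the log2 scale (SE, n = 4, edgeR, adjusted p = 0.0217) or by 0.50 with the block and GC correction (adjusted p = 0.00117). Without the block it lost its call in 7 of 12 such fits (edgeR, adjusted p from 0.0556 to 0.0809), those without the WT1 or WT2 serum library, the WT3 or WT4 serum-free library, or the WT1, WT2 or WT3 line. *COL5A2* (chromosome 2, 189031898 to 189441111) was at 238, 274, 236 and 83.0 CPM with serum and at 168, 244, 191 and 61.4 CPM without. It was lower without serum in every line, by 0.50, 0.17, 0.31 and 0.44 on the log2 scale as sizes of the decrease, but the lines differed by more than the conditions, and it passed only with the block (-0.35, edgeR, adjusted p = 3.17e-04, without the block -0.32, adjusted p = 0.671). With the GC correction it was -0.38 (edgeR, adjusted p = 4.87e-05).

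Among the low fibrillar chains, *COL2A1* and *COL24A1* passed in edgeR with the block and not without it. *COL2A1*, the main collagen of cartilage, was at 1.35, 0.973, 1.14 and 2.08 CPM with serum and 2.30, 1.59, 2.54 and 2.73 CPM without (0.75 with the block, edgeR, adjusted p = 0.00654, without it 0.0794, and with the block but no WT3 line 0.0555). *COL24A1* was at 1.70, 0.623, 1.07 and 0.598 CPM with serum and 2.51, 1.24, 1.64 and 3.0 CPM without (1.06 with the block, edgeR, adjusted p = 0.00511, without it 0.0740). WT4 gave *COL24A1* its largest change, a log2 ratio of 2.33 with a 95% counting interval of 1.60 to 3.14.

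The other fibrillar chains given by library did not pass in either of these fits. *COL27A1* was at 65.3, 62.1, 76.6 and 44.2 CPM with serum and 65.2, 62.2, 93.0 and 48.1 CPM without. *COL5A1* was at 23.5, 17.6, 15.4 and 23.0 CPM with serum and 27.3, 22.0, 14.7 and 22.7 CPM without. Neither was higher or lower without serum in all 4 lines. *COL5A3* was at 21.1, 38.5, 17.5 and 15.2 CPM with serum and 22.7, 39.1, 15.0 and 16.6 CPM without (0.01 with the block, edgeR, adjusted p = 0.937), and turned to -0.27 with the GC correction (adjusted p = 0.0101). *COL1A1* was at 1.32, 2.25, 1.52 and 0.634 CPM with serum and 2.13, 2.05, 0.924 and 1.31 CPM without (0.15, edgeR, adjusted p = 0.811).

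The collagen IV pairs can be read side by side. *COL4A1*, in CPM, was at 215, 212, 158 and 266 with serum and 190, 196, 144 and 226 without, lower in every line. Its log2 fold change of -0.17 did not pass without the block (edgeR, adjusted p = 0.512) and passed with it (-0.16, adjusted p = 0.0188) and with the GC correction (-0.29, adjusted p = 2.91e-05). The blocked call was lost with upper-quartile scaling (-0.10, edgeR, adjusted p = 0.128) and without the WT1 or WT2 line (adjusted p = 0.0937 and 0.0554). *COL4A2* was at 461, 523, 410 and 662 CPM with serum and 506, 565, 415 and 612 CPM without, higher in 3 lines and lower in WT4. It did not pass without or with the block (0.03 and 0.04, edgeR, adjusted p = 0.918 and 0.611), and with the GC correction it turned to -0.20 (adjusted p = 7.74e-04). The pair, whose starts are 126 bases apart, differed in the sign of its uncorrected change in WT1, WT2 and WT3, though for *COL4A2* in WT3 the 95% counting interval of -0.01 to 0.05 held 0. With the GC correction both fell.

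*COL4A4* was at 0.636, 0.319, 0.490 and 0.950 CPM with serum and 1.68, 0.654, 1.16 and 3.28 CPM without, from 21 to 185 reads a library. It was higher in each line, with a log2 fold change of 1.53 ± 0.51 (SE, n = 4, edgeR, adjusted p = 0.0549), which passed with the block (1.38, adjusted p = 4.20e-04). Without the block the value was 0.98 when the WT4 serum-free library was left out (edgeR, adjusted p = 0.16), and voom gave an adjusted p of 0.117 and DESeq2 one of 0.0168. Its neighbor *COL4A3*, with 57 reads in all, was not tested and had means of 0.0929 CPM with serum and 0.192 CPM without. *COL4A5* was at 2.41, 2.51, 2.48 and 2.39 CPM with serum and 2.82, 3.15, 3.67 and 4.01 CPM without, with no overlap (0.48 ± 0.16, SE, n = 4, edgeR, adjusted p = 0.0582), and passed with the block (0.46, adjusted p = 0.0263), but not without the WT2, WT3 or WT4 line (adjusted p = 0.0575, 0.11 and 0.0776). The partner of *COL4A5*, *COL4A6*, was at 0.238, 0.335, 0.0701 and 1.16 CPM with serum and 0.332, 0.458, 0.103 and 0.781 CPM without, with between 3 and 44 reads a library (edgeR, adjusted p = 0.995).

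Of 8 tested FACIT chains, none passed in edgeR without the block and none had an unadjusted p under 0.05, and 3 rose with it, beside 23.2% of all genes. *COL16A1*, found in skin and cartilage, was at 33.3, 23.7, 38.4 and 49.4 CPM with serum and 45.8, 37.8, 65.1 and 66.5 CPM without, higher in every line (0.58 ± 0.26, SE, n = 4, edgeR, adjusted p = 0.137, with the block 0.58, adjusted p = 1.14e-05, with the GC correction 0.34, adjusted p = 2.78e-04). *COL9A3* was at 136, 115, 110 and 306 CPM with serum and 192, 171, 145 and 332 CPM without. Its log2 fold change was 0.33 without the block (edgeR, adjusted p = 0.593), and leaving out WT4 moved it either way, to 0.49 without the line (adjusted p = 0.0199), 0.80 without its serum library (adjusted p = 0.0796) and 0.02 without its serum-free library (adjusted p = 0.982). It was 0.39 with the block (adjusted p = 2.80e-04), but 0.06 with the GC correction (adjusted p = 0.256).

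*COL19A1* was at 38.5, 33.0, 65.5 and 85.6 CPM with serum and 49.5, 36.1, 68.6 and 112 CPM without (0.24 with the block, edgeR, adjusted p = 0.01, without it 0.26, adjusted p = 0.698), and lost the blocked call without the WT1 line (adjusted p = 0.0799). With the GC correction *COL19A1* was at 0.35 (edgeR, adjusted p = 8.57e-05). *COL12A1*, a collagen of tendon and other dense tissue, was at 143, 110, 139 and 46.3 CPM with serum and 140, 101, 120 and 44.9 CPM without (-0.10 with the block, edgeR, adjusted p = 0.14), and was called lower in the blocked fit without the WT4 line (-0.12, adjusted p = 0.0296). For both, the conditions overlapped and WT4 was at one end of the range. *COL9A2* was at 1.72, 2.08, 3.04 and 5.49 CPM with serum and 3.03, 2.44, 3.26 and 6.18 CPM without (0.29, edgeR, adjusted p = 0.65).

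Among the transmembrane and multiplexin chains, *COL13A1* was at 7.15, 11.2, 4.90 and 4.65 CPM with serum and 9.59, 15.0, 5.26 and 6.12 CPM without (0.34 with the block, edgeR, adjusted p = 0.0168, without it 0.548), and lost the blocked call without the WT1 or WT2 line (adjusted p = 0.0808 and 0.114). *COL18A1*, the source of endostatin, was at 22.7, 32.7, 25.3 and 40.5 CPM with serum and 34.1, 49.6, 28.2 and 43.4 CPM without (0.36 with the block, edgeR, adjusted p = 0.00347, without it 0.272), and with the GC correction at 0.04 (adjusted p = 0.669). Of its exon bases, 18.5% overlap the antisense gene *SLC19A1*, and reads there are uncertain. *COL15A1* was at 1.32, 0.350, 0.981 and 0.528 CPM with serum and 0.853, 0.196, 1.49 and 0.870 CPM without, lower in WT1 and WT2 and higher in WT3 and WT4 (edgeR, adjusted p = 0.938).

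Many collagen chains differed in level between the 4 lines. The test of the line term, with the serum and the serum-free library of a line as its 2 replicates, called 21 of the 34 chains (61.8%, edgeR's quasi-likelihood F-test, Benjamini-Hochberg adjusted p under 0.05), beside 22.9% of all tested genes. The libraries of 1 line share their cells, and the test covers the spread left after line and condition.

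WT4, whose identity rests on the labels, stood apart in both directions, with FACIT chains on either side. Both of its libraries were below the other 6 for *COL5A2*, *COL12A1*, *COL27A1* and *COL21A1*, beside 7.58% of all genes (*COL21A1* with 1 and 7 reads in WT4 and no called line difference, edgeR, adjusted p = 0.34), and above them for *COL9A3*, *COL9A2*, *COL19A1*, *COL4A1*, *COL4A2* and *COL4A6*, beside 8.12% of all genes. The same count was not made for the other lines. Among them, WT2 lay above all others for *COL5A3* and *COL13A1*, and WT3 below all others for *COL4A1* and *COL4A2*. The spread was widest, among chains over 10 CPM, for *COL5A2*, whose line means ran from 72.2 CPM in WT4 to 259.1 CPM in WT2, a 3.59-fold range (edgeR, adjusted p = 1.80e-08). *COL12A1* ran from 45.6 CPM in WT4 to 141.7 CPM in WT1 (3.11-fold, edgeR, adjusted p = 1.86e-08).

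In the other direction, *COL19A1* ran from 34.5 CPM in WT2 to 98.7 CPM in WT4 (2.86-fold, edgeR, adjusted p = 1.51e-07) and *COL9A3* from 127 CPM in WT3 to 319 CPM in WT4 (2.51-fold, adjusted p = 3.05e-07). The collagen IV pair *COL4A1* and *COL4A2* was highest in WT4 and lowest in WT3, with 1.63-fold and 1.54-fold ranges (edgeR, adjusted p = 6.17e-05 and 1.95e-04). *COL4A6* had a wider range, 11.2-fold from WT3 to WT4 (edgeR, adjusted p = 0.00525), which in WT3 rests on 3 and 4 reads.

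Some chains were highest in WT2 or WT3. *COL5A3* (2.45-fold, edgeR, adjusted p = 1.15e-06) and *COL13A1* (2.58-fold, adjusted p = 1.71e-05) were highest in WT2, and *COL27A1* (1.84-fold, adjusted p = 4.82e-05) and *COL8A1* (1.83-fold, adjusted p = 3.10e-05) in WT3. *COL16A1*, *COL6A3* and *COL9A2* were, like the chains above, highest in WT4 (1.88-fold, 2.63-fold and 2.58-fold, edgeR, adjusted p = 2.84e-05, 6.12e-05 and 7.17e-04). The chains with no called line difference included *COL7A1* and *COL4A5* (1.28-fold and 1.23-fold, edgeR, adjusted p = 0.0871 and 0.76). *COL8A1* differed between lines in level, with WT1 and WT3 high, and its log2 ratio without serum ran from 1.15 to 1.39 over the lines. For *COL5A2* the distance of WT4 from the other lines was larger than the change with serum in any line.

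**Figure D4:**
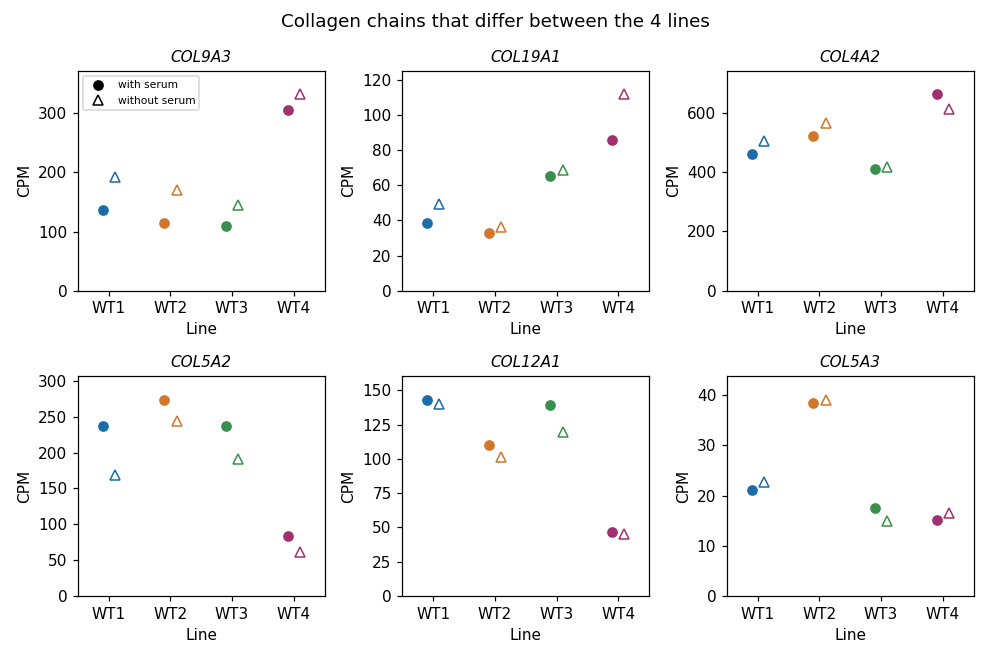
CPM of 6 collagen chains by line, with serum as filled circles and without serum as open triangles, 1 library each. WT4 is above the other lines for *COL9A3*, *COL19A1* and *COL4A2* and below them for *COL5A2* and *COL12A1*, and WT2 is above the others for *COL5A3*.

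A list of 47 genes that fold, export, process, cross-link or bind collagen was read beside the chains, and 40 of them passed the filter. Without the block 8 rose and 3 fell past the threshold, or 20% and 7.5% of those tested, beside 11.1% and 14% of all genes. With the block 11 rose and 10 fell (27.5% and 25%, beside 23.2% and 22.4%), and with the GC correction added 10 rose and 12 fell (25% and 30%, beside 21.7% and 24.5%). Of 18 folding and modification genes, 1 rose (5.56%) and 3 fell (16.7%), beside those 11.1% and 14% of all genes. *COLGALT1*, the main collagen galactosyltransferase, fell from 334.8 ± 15.4 to 260.4 ± 23.3 CPM (SD, n = 4, log2 fold change -0.36, edgeR, adjusted p = 0.00861), while its relative *COLGALT2* rose from 2.04 ± 0.295 to 5.10 ± 0.824 CPM (1.32, edgeR, adjusted p = 0.00181). The prolyl isomerases *FKBP14* and *PPIB* fell by 0.48 and 0.21 on the log2 scale (edgeR, adjusted p = 0.00936 and 0.0318). With the block 3 of the 18 rose and 7 fell, and with the GC correction 2 rose and 10 fell. None of 5 secretion genes was called by edgeR without the block, with 1 lower at an unadjusted p under 0.05 and, with the block, 1 lower (*SEC23A*, -0.19, adjusted p = 0.022), whose call was lost with the GC correction (-0.0038, adjusted p = 0.956), while *MIA3*, a cargo receptor for collagen, was then called higher (0.12, adjusted p = 0.0292). This list was not run with the other tools.

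Of 9 tested processing and cross-linking genes, 3 rose (33.3%, beside 11.1% of all genes) and 0 fell by edgeR, the block gave the same counts, beside 23.2% and 22.4% of all genes, and the GC correction gave 2 higher and 1 lower, beside 21.7% and 24.5%. *LOXL4*, a lysyl oxidase that starts cross-links, rose from 72.7 ± 12.1 to 371.5 ± 72.4 CPM (SD, n = 4, log2 fold change 2.35, edgeR, adjusted p = 5.46e-04). It was at 59.8, 65.1, 82.1 and 83.8 CPM with serum and at 343, 291, 462 and 390 CPM without, far apart in every line. *PCOLCE*, which enhances removal of the C-terminal propeptide, and *BMP1*, the protease that removes it, rose by 0.48 and 0.36 on the log2 scale (edgeR, adjusted p = 0.0161 and 0.0330). With the block and GC correction *BMP1* lost its call (0.14, edgeR, adjusted p = 0.125).

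Of 8 tested receptor genes, 4 rose (50%, beside 11.1% of all genes). The collagen receptor kinase *DDR1* rose from 86.3 ± 9.20 to 149.3 ± 12.9 CPM (SD, n = 4, log2 fold change 0.79, edgeR, adjusted p = 0.00112), and *ITGA10*, an integrin chain that binds collagen, from 6.01 ± 1.68 to 21.9 ± 10.5 CPM (1.87, adjusted p = 0.00668). The endocytic collagen receptor *MRC2* and the integrin chain *ITGA11* rose by 0.62 and 1.10 on the log2 scale (edgeR, adjusted p = 0.0201 and 0.0367). With the block *DDR2* also rose (0.21, edgeR, adjusted p = 0.0188), and the integrin chains *ITGA2* and *ITGB1* fell (-0.28 and -0.18, edgeR, adjusted p = 0.00269 and 0.0193). With the GC correction *ITGA2* was at -0.15 (edgeR, adjusted p = 0.0233) and *ITGB1* lost its call (-0.03, adjusted p = 0.545).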

How the data were processed

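RNA of 4 wild-type A375 lines, with and without serum for 12 h, was depleted of ribosomal RNA and sequenced in paired ends. The authors deposited raw counts of reads per gene. The submitters' processing notes name cutadapt, TopHat2 2.0.11, HTSeq and GRCh38. Annotation release and strand setting are not given in the sources used here, so reads on overlapping antisense genes are uncertain. Reads outside single genes, which HTSeq leaves out, were 16.1% to 31.0% of a library. The file labelled WT4 carries another name, so its identity rests on the labels.

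The members and lists were chosen with earlier results of these data known. After filterByExpr and TMM scaling, genes were tested in edgeR 4.0.16 (R 4.3.3, robust glmQLFit and glmQLFTest), and p-values were adjusted over 17671 tested genes by Benjamini-Hochberg at 0.05. SE is the log2 fold change divided by the root of F. Libraries with the same line number come from the same cell line and pair across conditions. Their deviations from condition means correlated at 0.403, 0.591, 0.456 and 0.604 for WT1 to WT4, against at most 0.126 across lines. GC correction fitted each library's deviations by lowess (span 0.3) on GC content, known for 17425 genes. Exon lengths and GC content came from GENCODE lifted to GRCh37, another build than the counts, and positions from RefSeq GRCh38.p14. Ensembl identifiers gave symbols for 55604 of 58051 genes. Intervals and limits cover counting error only.

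Alternatives were DESeq2 1.42.0, voom (limma 3.58.1), other scalings and filters, and each library or line left out. Chains with a mean of at least 1 CPM or a call without or with the block or between lines are given by library, and in each pathway list the 3 genes of smallest p among those past the threshold without the block are named. *PPIB*, *ITGA11*, *SEC23A*, *MIA3*, *DDR2*, *ITGA2* and *ITGB1* are outside this rule and were picked with their values in view. Scripts were checked on simulated data.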

Additional observations from a re-analysis of the deposited data

Results flagged for a closer look

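One value among the 4 libraries of a condition stood far from the others. *COL9A3* with serum was at 306 CPM in WT4 and at 110 to 136 CPM in the other 3 lines, a gap of 0.863 of the whole range. It was the only one of 52 groups of 4 libraries to pass Dixon's criterion for 4 values, where chance gives about 2.6.

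In 3 chains, single lines changed in opposite directions without serum, each beyond its 95% counting interval. The difference between lines was not tested, since each line has 1 library per condition. For *COL4A2* the log2 ratio was -0.11 in WT4 and 0.13 in WT1, a gap of 0.246. For *COL6A3* it was -0.42 in WT3 and 0.33 in WT1, a gap of 0.75. For *COL1A1* it was -0.72 in WT3 and 1.05 in WT4, a gap of 1.77, from 18 to 74 reads in each of these 4 libraries.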

How the results depend on the processing

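The 5 chains changed without serum became 16 with the line as a replicate block (14 higher, 2 lower), 15 with the block and GC correction (11 and 4), and 8 with DESeq2 with or without independent filtering. Leaving out a library or a line gave 0 to 7, with 0 without WT1, 2 without WT2, 1 without WT3 and 7 without WT4, while the calls over all genes went from 4434 to 1589, 1975, 1873 and 5631. Without single libraries the count was 3 (serum WT1), 2 (serum WT2), 3 (serum WT3), 7 (serum WT4), 3 (serum-free WT1), 6 (serum-free WT2), 3 (serum-free WT3) and 2 (serum-free WT4). In the same order, the calls over all genes were 2842, 3085, 2974, 6128, 3318, 3543, 3438 and 3079, beside 4434 in the main fit. RLE scaling gave 4 chains, beside 4428 calls over all genes. Alternatives chosen after seeing the data were the block without each line, with 13, 13, 14 and 16 calls (6185, 6485, 6197 and 8938 over all genes), the block with RLE scaling, with 16, and the block with upper-quartile scaling, with 17 (16 higher, 1 lower), beside 4936 higher and 3106 lower over all genes. Without the block upper-quartile scaling gave 7 higher and 0 lower, moved the median of all genes from 0.03 to 0.10 on the log2 scale and changed the split of all calls from 1957 higher and 2477 lower to 2508 and 1843. With the block and GC correction *COL4A2* turned to -0.20 and *COL5A3* to -0.27, and the cause was not tested. The pathway count of 11 became 21 with the block (11 higher, 10 lower). The 21 chains differing between lines ran from 17 to 25 over the alternatives, and the 16 chains of at least 1 RPKM became 18 with the longest transcript and 21 as TPM. With the block and any 1 line left out, *COL8A1*, *COL7A1*, *COL6A1*, *COL6A2*, *COL11A2*, *COL16A1*, *COL9A3*, *COL18A1*, *COL4A4*, *COL24A1* and *COL5A2* kept their calls, and *COL4A1*, *COL4A5*, *COL2A1*, *COL13A1* and *COL19A1* did not in every fit. Without the block, leaving out 1 library moved *COL5A2* between -0.58 and -0.04, *COL19A1* between -0.11 and 0.54, *COL13A1* between -0.0048 and 0.69, *COL4A1* between -0.29 and -0.04, *COL12A1* between -0.37 and 0.14 and *COL9A2* between -0.07 and 0.71, with no call. *COL6A3* moved between -0.12 and 0.37 in these fits, also with no call. Over all alternatives *COL1A1* ran from -0.08 to 0.46. Chains under 1 CPM rested on few reads, which limits what a test of them can show.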
